A study of Homo sapiens with 21 samples.

Results

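Caffeine at 100 µM was compared with no caffeine in HepG2, a human liver cancer cell line that keeps many hepatocyte genes active. The comparison takes 6 of the 21 libraries of the series, namely the 3 labelled 100 µM and the 3 labelled 0 µM, chosen by the dose in their titles. All groups are HepG2 cultures kept in serum-free medium for 24 h, and the other 15 libraries are the same cells with 0.01, 0.1, 1, 10 or 1000 µM caffeine, 3 per dose. RNA was purified on poly(dT) beads, which bind polyadenylated RNA, and copied with SmartScribe reverse transcriptase, per the labels' protocols. The labels do not say whether replicates came from separate cultures, so p-values measure only the spread between these libraries.

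Caffeine is a methylxanthine. It blocks adenosine receptors, and at higher concentrations it also inhibits cyclic nucleotide phosphodiesterases, opens calcium channels of the endoplasmic reticulum and inhibits kinases of the ATM and ATR family, which halt the cell cycle after DNA damage. Cells pass from G1 through DNA synthesis to mitosis in a fixed order, and the genes for each phase are switched on together. G1/S genes carry sites for E2F factors, while many mitotic genes carry a CHR element and CCAAT boxes and are kept silent in resting cells by the DREAM complex, which contains the pocket proteins RBL1 or RBL2. YAP, a transcriptional co-activator controlled by cell density and tension, acts through TEAD factors on genes such as CCN1, CCN2 and ANKRD1.

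At 100 µM most cell cycle genes were higher than without caffeine. The 250 tested members of 10 cell cycle lists, each gene counted once, which run from mitosis and its checkpoints to replication, recombination and the G1 regulators, held 186 that were higher than control and 15 that were lower by edgeR's quasi-likelihood test at an adjusted p of 0.05. Over all 17951 features tested, 4243 (23.6%) were higher and 4115 (22.9%) were lower, which together make 46.6%. A pair of lists tied to the cell cycle were kept out of this sum and are described separately: of 13 replication-dependent histone genes tested 0 were higher and 4 lower, and of 35 p53 targets 0 were higher and 21 lower. Lists of TGF beta and YAP targets and of NF-kB genes also had more members lower than higher. The lists were chosen with earlier results of these data known, so their counts describe these libraries and are not independent evidence of a direction. Bulk RNA cannot tell more cells in a phase of the cycle from more of these transcripts in each cell.

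The libraries differed in their mitochondrial reads, which has to be read before the results. Total counts were 32759535, 39571761 and 27867586 in the controls and 27934748, 44815552 and 23502519 at 100 µM. Mitochondrial features took 10.8%, 12.3% and 14.2% of counts in control replicates 1 to 3. They took 12.7%, 4.72% and 12.8% at 100 µM, so replicate 2 stood apart from replicates 1 and 3. The means were 12.4% ± 1.67 and 10.1% ± 4.65 (SD, n = 3 each), with a 2-sided exact permutation p of 0.7 where the smallest possible is 0.1. The ratio of ND4 to CO1 counts, both mitochondrial mRNAs, was 0.492, 0.494 and 0.570 in the controls and 0.878, 0.452 and 0.915 at 100 µM, so replicate 2 lay on the other side of control from replicates 1 and 3. Of 7 measures of library makeup, 2 were clear of control in all 3 treated libraries, at that smallest p of 0.1. MALAT1, a nuclear long noncoding RNA, averaged 241 ± 28.2 per 1e6 counts in the controls and 165 ± 48.8 at 100 µM, and features without an annotation took 0.654% ± 0.052 and 0.567% ± 0.013 (SD, n = 3 each, exact permutation test). Total counts, the ND4 to CO1 ratio, the mitochondrial share, NEAT1 and the share of the 20 most abundant features overlapped, with p from 0.4 to 1. The part of these measures in the results was not tested. Without 100 µM replicate 2 the treated mean was 0.35 percentage points above control instead of below it. Clustering of the 13 mitochondrial mRNAs put the 21 libraries into 3 sets. The controls all fell into set A, together with every library at 0.01 and 0.1 µM and the first and second at 1 µM. Set B took replicate 3 of the 1 µM group, the whole 10 µM group, the second 100 µM library and the first and second at 1000 µM. Set C was left with replicate 1 and replicate 3 of the 100 µM group and the last library of the 1000 µM group. No 100 µM library shares a set with a control, and only replicate 3 at 1 µM ties set A to set B within a dose. What sets the library sets apart is not given in the labels, and it cannot be told apart from caffeine except through that tie.

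Each change was therefore checked in several ways. With the library set as a term in the same fit, 3114 features (17.3%) were called, 1640 (9.14%) higher and 1474 (8.21%) lower. A feature is said to have held where it was called without the set term, was called in the same direction with it, and had all 3 treated libraries beyond all 3 controls on that side. This was so for 2775 features (15.5%), 1496 (8.33%) higher and 1279 (7.12%) lower. Each treated library was also set alone against the 3 controls, which called 31.4%, 30.8% and 31.1% of features for replicates 1, 2 and 3. In all 3 of these fits 1875 features (10.4%) were higher and 1433 (7.98%) lower. Replicate 2 was also compared with the 3 libraries at 10 µM inside set B, where 1611 features (8.97%) were higher and 1180 (6.57%) lower. That last comparison has no control library in it. The check for overlap and the fits of single treated libraries still set sets B and C against controls of set A. A set difference alone could pass both. Of the comparisons with control, only the set term adjusts for it, and replicate 3 at 1 µM alone ties set A to set B within a dose. Of the 250 cell cycle members, 140 held as higher and 7 as lower, 137 were higher with each treated library alone, and 164 were higher and 4 lower inside set B.

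Of the features that held, 618 rose and 531 fell by more than 1 on the log2 scale. Across gene types, 51.1% of the 13002 protein-coding genes tested were called, and 1395 of them held as higher and 1036 as lower. The 59 lists name 1654 genes, some in more than 1 list, of which 1625 are in the table and 1483 passed the filter on low counts. CPM values compare libraries for a gene and not genes with each other, since they are not divided by length. The median log2 fold change over all features was -0.01, and -0.02 with the set term, both near 0.

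The 4 genes listed as markers of the comparison were all higher in every treated library. CDKN2AIPNL encodes a small relative of the CDKN2A-interacting protein CDKN2AIP. It stood at 3.15, 3.84 and 3.95 CPM (read counts scaled to library size with TMM) in the controls and at 28.3, 27.6 and 28.5 CPM at 100 µM. The 3 treated libraries differed little from each other and lay far from the controls. Its log2 fold change was 2.95 ± 0.15 (SE, n = 3 each), which is 7.72-fold, with an adjusted p of 3.70e-11, and 2.26 with the set term. In the GENCODE 29 annotation on GRCh38 the gene spans 5:134402087-134411898 on the minus strand. PBK, a mitotic serine/threonine kinase, had 3.64, 3.92 and 5.60 CPM in the controls and 33.8, 31.4 and 32.8 CPM at 100 µM, a log2 fold change of 2.91 ± 0.17, and 2.43 with the set term. BIRC5 encodes survivin, a subunit of the chromosomal passenger complex that corrects faulty attachments of chromosomes to the spindle. It had 20.5, 22.9 and 24.2 CPM in the controls and 106, 122 and 99.0 CPM at 100 µM (17:78214186-78225636, plus strand). The groups did not overlap, and the log2 fold change was 2.28 ± 0.14 with an adjusted p of 4.23e-10. With the set term it was 1.89, and inside set B, where the 10 µM libraries had 46.1 to 46.4 CPM, it was 1.404. At 1 µM the gene had 31.7 and 25.8 CPM in set A and 42.4 CPM in set B. CENPF, a large kinetochore protein, had 73.3, 67.6 and 90.5 CPM in the controls and 191, 213 and 189 CPM at 100 µM (1:214603195-214664588, plus strand). Its log2 fold change was 1.36 ± 0.11, and 1.54 with the set term, and all 4 genes held.

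**Figure D1:**
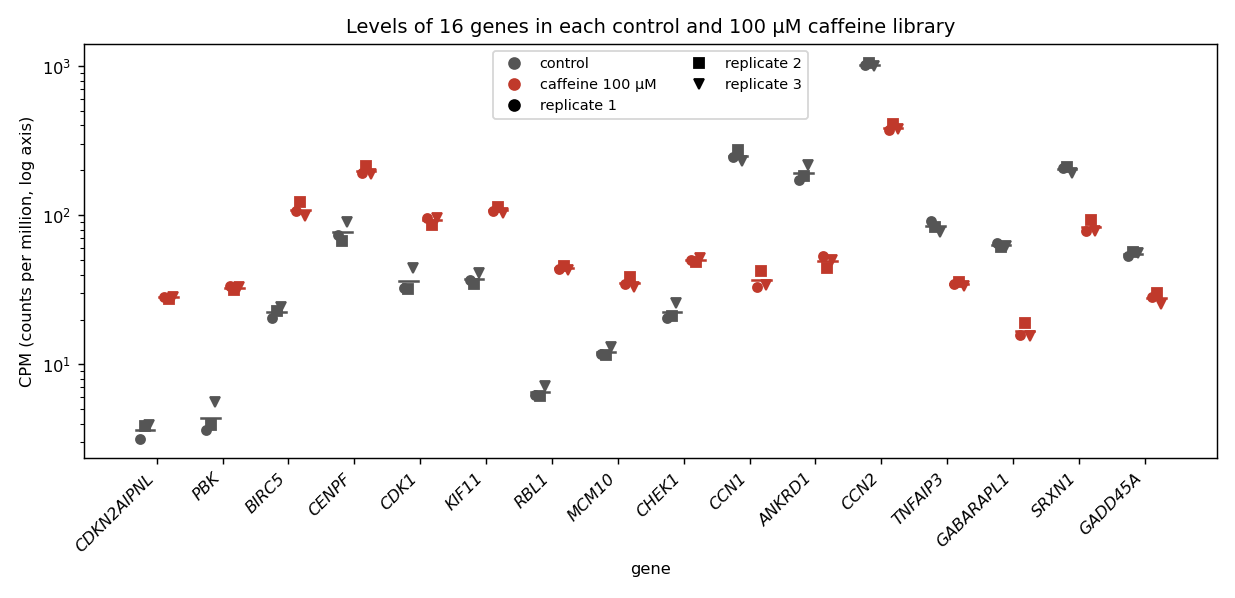
CPM (log axis) of 16 genes in the 3 control (grey) and 3 treated (red) libraries, with symbols for replicates and bars for group means. For each gene plotted, the 3 treated libraries lie beyond all 3 controls on the same side, with BIRC5 at 99.0 to 122 CPM against 20.5 to 24.2 and CCN1 at 33.1 to 42.5 CPM against 230 to 275.

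Promoter sequences of a few members are shown because mitotic and G1/S genes are known for different promoter elements. They are the 250 bases before the RefSeq start site (GRCh38.p14), 5′ to 3′ on the gene's strand, and they were chosen because they hold the motif searched. The first 3 are mitotic genes that held as higher. Capitals mark TTTGAA, the core of the CHR element, and CCAAT, each on either strand (so also TTCAAA and ATTGG). KIF11 (plus strand) lies at chr10:92592880-92593129, CENPA (plus strand) at chr2:26785806-26786055 and ZWINT (minus strand) at chr10:56361260-56361509.
KIF11: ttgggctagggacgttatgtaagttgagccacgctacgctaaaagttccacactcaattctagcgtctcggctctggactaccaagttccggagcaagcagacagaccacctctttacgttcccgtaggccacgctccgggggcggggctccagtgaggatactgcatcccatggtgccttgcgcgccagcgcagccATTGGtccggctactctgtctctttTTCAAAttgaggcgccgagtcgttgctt
CENPA: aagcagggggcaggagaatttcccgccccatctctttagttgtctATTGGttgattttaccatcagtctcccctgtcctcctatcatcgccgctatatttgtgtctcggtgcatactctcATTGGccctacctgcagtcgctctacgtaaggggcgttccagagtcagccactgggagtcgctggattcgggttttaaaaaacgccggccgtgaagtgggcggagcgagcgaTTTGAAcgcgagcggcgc
ZWINT: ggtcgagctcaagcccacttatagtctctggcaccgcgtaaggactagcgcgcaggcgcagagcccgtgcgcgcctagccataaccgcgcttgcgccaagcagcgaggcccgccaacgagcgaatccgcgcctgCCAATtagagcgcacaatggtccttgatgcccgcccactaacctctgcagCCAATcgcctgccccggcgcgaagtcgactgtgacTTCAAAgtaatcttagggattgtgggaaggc
In these 3 sequences the TTTGAA match begins 28, 18 and 31 bases before the start site, and the CCAAT matches lie farther upstream.

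The next sequences are from G1/S genes that held as higher, the pocket protein gene RBL1 (minus strand, chr20:37095998-37096247) and the replicative helicase gene MCM6 (minus strand, chr2:135876444-135876693). Capitals mark TTTNGCGC on either strand, a form of the E2F site, and in MCM6 matches on both strands overlap.
RBL1: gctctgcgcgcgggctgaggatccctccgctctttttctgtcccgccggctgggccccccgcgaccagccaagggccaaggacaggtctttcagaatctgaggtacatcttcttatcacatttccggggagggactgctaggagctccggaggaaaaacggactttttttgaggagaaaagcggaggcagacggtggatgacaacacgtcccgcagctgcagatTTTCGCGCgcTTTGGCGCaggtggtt
MCM6: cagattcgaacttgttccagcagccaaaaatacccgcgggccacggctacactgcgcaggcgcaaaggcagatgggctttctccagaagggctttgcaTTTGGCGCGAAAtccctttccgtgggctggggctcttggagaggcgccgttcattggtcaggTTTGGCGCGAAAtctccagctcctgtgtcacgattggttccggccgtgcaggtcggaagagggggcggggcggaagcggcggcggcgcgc
RBL1 has 2 matches and MCM6 has 4. In windows from 250 bases before to 50 after the start, TTTNGCGC was found in 17.8% of the 118 promoters of cell cycle members that held as higher. It was found in 8.79% of the 91 promoters of the other tested members, in 3.07% of 10337 promoters of tested protein-coding genes and in 1.83% of all 27305 promoters. TTTGAA together with CCAAT was found in 24.6%, 13.2%, 4.21% and 6.08% in the same order, TTTGAA in 34.7%, 23.1%, 9.85% and 15.4%, and CCAAT in 63.6%, 40.7%, 36.7% and 35.7%. A match is only a match of letters, and no binding was measured here.

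Genes of mitotic entry were higher in nearly all cases. Of 14 mitotic cyclins, CDK1 and their regulators, 13 were higher and 0 lower, with 9 held and a median log2 fold change of 0.89. CDK1, the kinase that drives entry into mitosis, had 32.8, 32.2 and 44.0 CPM in the controls and 95.5, 86.4 and 95.9 CPM at 100 µM, a 2.55-fold rise. CCNA2, the cyclin of S phase and G2, had 55.7, 62.8 and 72.5 CPM against 136, 130 and 139 CPM. CCNB1, the main mitotic partner of CDK1, rose from 70.6, 73.8 and 89.6 CPM to 163, 151 and 157 CPM. CCNB1 kept its call with the set term at a lower value, with a log2 fold change of 1.01 without it and 0.61 with it.

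Kinases and checkpoint proteins of mitosis guard the attachment of chromosomes to the spindle. Of 20 members, 14 were higher and 1 lower, 13 held, and the median was 0.51. NEK2, a centrosome kinase, had 16.99, 14.7 and 19.98 CPM in the controls and 38.9, 39.4 and 38.0 CPM at 100 µM. CDCA8, which with BIRC5 belongs to the chromosomal passenger complex, had a log2 fold change of 1.21.

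Spindle motors and spindle assembly factors pull the chromosomes apart. Of 31 members, 24 were higher and 2 lower, and 21 held as higher and 1 as lower, with a median of 0.77. KIF11, the motor that pushes the spindle poles apart, had 36.8, 34.5 and 40.7 CPM in the controls and 106, 113 and 104 CPM at 100 µM, a log2 fold change of 1.53 ± 0.09. KIF2C, which depolymerises microtubules at kinetochores, had a log2 fold change of 1.42, and ASPM, a spindle pole protein, had 1.39. The member that held as lower was SKA1, named here after its value was seen, at -0.67. At the centromere, 18 of 24 members were higher and 1 lower, and 10 held. CENPA, the histone H3 variant that marks centromeres, had 5.81, 5.79 and 5.87 CPM in the controls and 20.2, 20.8 and 18.3 CPM at 100 µM. ZWINT, which links kinetochores to the checkpoint, had 40.8, 44.3 and 40.8 CPM against 92.0, 95.9 and 85.0 CPM.

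Lists of chromosome structure and of the exit from mitosis also had more members higher than lower. Of 21 condensin and cohesin members, 14 were higher and 2 lower, with 10 and 2 held. Condensin I subunits NCAPH and NCAPG, which compact mitotic chromosomes, had log2 fold changes of 1.12 and 1.31. The pair that held as lower, STAG1 at -0.53 and ESCO1 at -0.39, act in cohesin and were named after their values were seen. Of 19 members around the anaphase promoting complex, the ubiquitin ligase that ends mitosis, 9 were higher and 3 lower, with 6 and 1 held. ESPL1, the separase that cuts cohesin, had 11.9, 12.3 and 9.66 CPM in the controls and 31.4, 40.7 and 29.2 CPM at 100 µM. CDC20, an activator of the anaphase promoting complex, had a log2 fold change of 0.97, and the E2 enzyme UBE2C had 0.75.

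DNA replication genes were also higher in most cases. Of 30 genes of replication origins and the helicase, 26 were higher and 1 lower, with 20 and 1 held and a median of 0.61. MCM10, which starts the helicase, had 11.7, 11.6 and 13.1 CPM in the controls and 34.8, 38.3 and 33.1 CPM at 100 µM, a log2 fold change of 1.55 ± 0.10. MCM6, a subunit of the helicase ring and the second of the E2F sequences above, had 15.8, 16.4 and 19.7 CPM against 39.2, 43.4 and 39.0 CPM. Of 33 DNA polymerases, clamp and nucleotide supply genes, 29 were higher and 0 lower, and 23 held. RRM2, the regulated subunit of ribonucleotide reductase, was nearly the same in the libraries of a group, at 99.8, 100.1 and 106 CPM in the controls and 216, 217 and 214 CPM at 100 µM. TOP2A, the topoisomerase that untangles sister chromosomes, had 135, 132 and 170 CPM against 329, 367 and 327 CPM. Of the 24 enzymes of purine and pyrimidine synthesis 62.5% were called, beside 46.6% of all features. They gave 15 higher and 0 lower, but 2 of these held. NME1, a nucleoside diphosphate kinase, was among these with a log2 fold change of 1.25.

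Genes of repair by recombination and G1/S regulators were also higher in most cases. Of 34 homologous recombination and Fanconi anaemia genes, 25 were higher and 2 lower, and 18 held as higher. RMI2, a partner of the BLM helicase, had a log2 fold change of 1.85, and BLM itself 1.20. Of 24 G1 cyclins, CDKs, pocket proteins, E2F factors and inhibitors, 14 were higher and 3 lower, with 10 and 2 held. RBL1 was the member with the highest fold change in this list, with 6.23, 6.18 and 7.13 CPM in the controls and 43.6, 45.7 and 42.9 CPM at 100 µM, a log2 fold change of 2.76 ± 0.11. E2F1, an activator of S phase genes, had 13.4, 15.8 and 12 CPM against 34.7, 42.1 and 36.1 CPM, and E2F2 and E2F8, of which E2F8 is a repressor, had log2 fold changes of 1.36 and 1.69. The CDK inhibitors CDKN2D at -1.95 and CDKN2B at -1.31 were lower, the first held and the second did not, and CDKN1A, at -0.16, was not called. These 3 inhibitors were named after their values were seen.

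**Figure D2:**
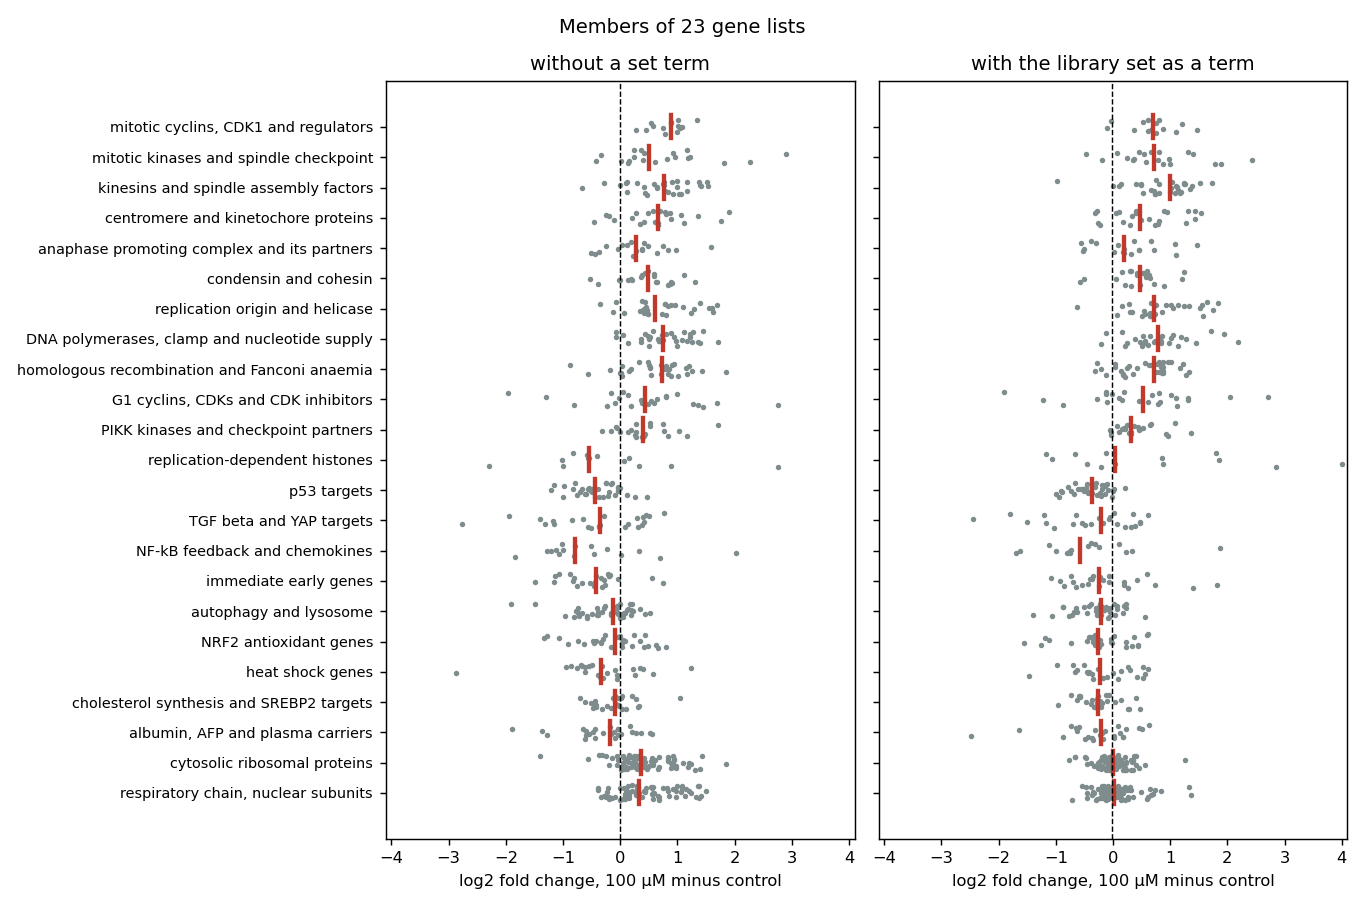
Log2 fold change at 100 µM against control for each tested member (grey points) of 23 gene lists, without (left) and with (right) the library set as a term. Red bars are list medians, dashed lines the median of all features, and values beyond 4 in size are drawn at 4. Cell cycle lists lie to the right in both panels, while cytosolic ribosomal proteins go from a median of 0.36 to 0.01.

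Checkpoint kinases of the ATM and ATR family are reported caffeine targets, so their own genes were looked at. Of 24 kinases and partners 15 were higher and 0 lower, with 7 held. That is a called share of 62.5% beside 46.6% of all features. CHEK1, the kinase that ATR activates, had 20.4, 21.1 and 26 CPM in the controls and 50, 48.5 and 52.1 CPM at 100 µM. RAD1, a subunit of the clamp that loads ATR signalling at damaged DNA, had 7.88, 8.28 and 8.28 CPM against 26.8, 25.0 and 27.9 CPM, a log2 fold change of 1.70. The kinases ATM and ATR themselves were not called. ATM had 101, 84.4 and 102 CPM in the controls and 75.9, 119 and 80.6 CPM at 100 µM, and ATR had 21.4, 18.5 and 25.0 CPM against 27.5, 32.1 and 24.8 CPM.

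The transcription factor p53 halts the cycle or kills the cell after damage, and called members of its target list were all lower. Of 35 members tested, 21 were lower and 0 higher, 14 were not called, the median was -0.44, and 8 held. The called share was 60.0% beside 46.6% of all features. GADD45A, a growth arrest gene, had 53.3, 56.7 and 55.4 CPM in the controls and 28.1, 30.2 and 25.4 CPM at 100 µM, a log2 fold change of -0.98 ± 0.10. TIGAR, which lowers glycolysis, had 28.97, 30.04 and 39.4 CPM against 13.6, 15.0 and 14.1 CPM. RRM2B, the p53-induced subunit of ribonucleotide reductase, had a log2 fold change of -0.83, opposite to the S phase subunit RRM2. The list median was -0.50 in replicate 1, -0.24 in replicate 2 and -0.48 in replicate 3 alone against control, and -0.37 with the set term.

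Replication-dependent histone genes are transcribed in S phase, and none was called higher. Their mRNAs lack a poly(A) tail, so poly(dT) beads take up few of them, and 13 of 36 passed the filter on low counts. Of these 0 were higher and 4 lower, a called share of 30.8% beside 46.6% of all features, and none of the 4 held. H2AC6, at 9.05, 8.07 and 7.17 CPM in the controls and 4.61, 4.75 and 4.24 CPM at 100 µM, had a log2 fold change of -0.83, and -0.46 with the set term. The share of tailed transcripts in these counts was not tested.

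Cytoskeletal and matrix genes under YAP and TGF beta were lower in larger number than higher. Of 24 members 13 were lower and 6 higher, and 8 held as lower and 3 as higher, with a median of -0.36. Leaving out control replicate 2, or 100 µM replicate 3, left 3 higher. CCN1, a secreted matricellular protein, had 246, 275 and 230 CPM in the controls and 33.1, 42.5 and 34.2 CPM at 100 µM (1:85580761-85583962, plus strand). Its log2 fold change was -2.77 ± 0.11 with an adjusted p of 2.37e-12, and all treated libraries lay far below all controls. CCN2, its close relative, had 1020, 1053 and 1000 CPM against 371, 410 and 381 CPM. ANKRD1, a nuclear ankyrin repeat protein of muscle and liver cells, had 171, 182 and 219 CPM against 53.3, 44.6 and 50.1 CPM. TPM1, the actin-binding tropomyosin, had a log2 fold change of -1.16. The members that held as higher were TGFBR2 at 0.41, YAP1 itself at 0.46 and TEAD4 at 0.51, named after their values were seen. WWTR1, which encodes the YAP relative TAZ, held as lower at -0.36 and was named in the same way.

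The upstream bases of ANKRD1 (minus strand, chr10:90921088-90921337) and CCN2 (minus strand, chr6:131951373-131951622) are shown because TEAD sites are the route by which YAP reaches these genes. Capitals mark GGAATG, the core of the TEAD motif, searched on both strands.
ANKRD1: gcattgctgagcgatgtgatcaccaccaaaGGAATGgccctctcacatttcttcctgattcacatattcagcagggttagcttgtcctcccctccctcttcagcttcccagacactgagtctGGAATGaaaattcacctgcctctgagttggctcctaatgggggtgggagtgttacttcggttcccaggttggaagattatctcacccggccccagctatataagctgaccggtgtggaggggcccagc
CCN2: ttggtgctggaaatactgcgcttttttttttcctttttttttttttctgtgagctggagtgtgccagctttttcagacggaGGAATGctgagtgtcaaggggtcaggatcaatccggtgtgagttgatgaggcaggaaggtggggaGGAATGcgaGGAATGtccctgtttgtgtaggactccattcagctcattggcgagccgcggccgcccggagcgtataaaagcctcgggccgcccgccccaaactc
ANKRD1 has 2 matches and CCN2 has 3. Among list members with a promoter in the table, GGAATG was found in 3 of the 6 that held as lower and in 2 of the 12 others, and in 14% of all promoters. With 6 promoters this is a description of those genes.

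The NF-kB list holds pathway subunits, their inhibitors, and target genes with chemokines, and most of its tested members were lower. Of 16 members 12 were lower and 3 higher, 8 held as lower and 1 as higher, and the median was -0.79. TNFAIP3, the ubiquitin-editing enzyme A20 that shuts the pathway off, had 91.7, 83.7 and 77.0 CPM in the controls and 34.8, 35.8 and 33.4 CPM at 100 µM, a log2 fold change of -1.28 ± 0.08. NFKB2, the precursor of the p52 subunit, had 67.4, 72.6 and 49.6 CPM against 28.9, 37.9 and 27.7 CPM. The groups of both genes were clear of each other. NFKBIB, an inhibitor that holds NF-kB in the cytoplasm, had a log2 fold change of -1.13. Among 24 immediate early genes, which respond within minutes to growth signals, 13 were lower and 1 higher, but 3 held as lower. Their called share was 58.3% beside 46.6% of all features. JUNB, an AP-1 subunit, had 26.4, 28.2 and 25.0 CPM in the controls and 7.68, 12.6 and 7.68 CPM at 100 µM. The higher member was KLF4, which reached 1.09 to 1.79 CPM at 100 µM. Of 25 interferon-stimulated genes 8 were lower and 2 higher, a called share of 40% beside 46.6% of all features, and 3 held as lower, among them the transcription factor gene IRF1 at -0.98.

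**Figure D3:**
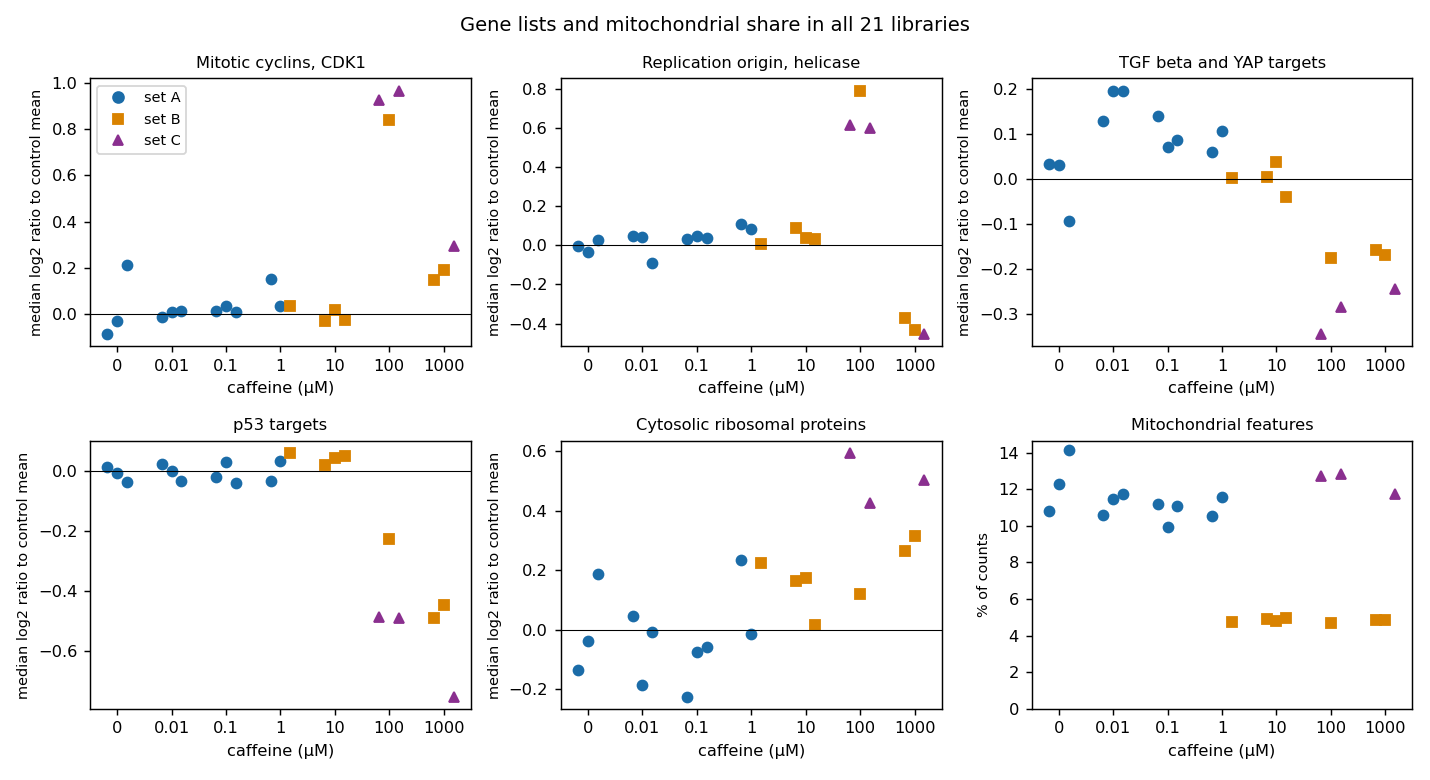
Median over list members of the log2 ratio to the control mean in each of the 21 libraries, for 5 lists, and the share of counts from mitochondrial features (bottom right), by caffeine dose, with colours and symbols for the library sets. Mitotic cyclins reach 0.84 to 0.97 at 100 µM whether the library is in set B or C.

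Autophagy and lysosome genes break down and recycle cell contents, and more of them were lower than higher, at a called share of 47.6% beside 46.6% of all features. Of 42 members 17 were lower and 3 higher, 9 held as lower and 0 as higher, and the median was -0.13. GABARAPL1, which coats autophagosomes, had 65.2, 61.6 and 61.9 CPM in the controls and 15.7, 19.02 and 15.5 CPM at 100 µM, a log2 fold change of -1.91 ± 0.15. WIPI1, which acts early in autophagosome formation, had a log2 fold change of -0.96.

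Stress lists had members called in both directions, 60.0% of NRF2 and of ATF4 genes, 70.8% of heat shock genes, 81.8% of metallothionein and zinc genes and 46.4% of the unfolded protein response, beside 46.6% of all features. Of 30 NRF2 antioxidant genes 12 were lower and 6 higher, with 7 and 1 held. SRXN1, which repairs peroxiredoxins, had 207, 210 and 192 CPM in the controls and 78.8, 93.4 and 78.9 CPM at 100 µM. NQO1, a quinone reductase under the same factor, went the other way, with 453, 457 and 488 CPM against 693, 750 and 707 CPM. AKR1C1, with close paralogues that make its counts uncertain, had a log2 fold change of -1.06. Of 24 heat shock genes 12 were lower and 5 higher, with 4 and 3 held. DNAJB1, a co-chaperone, had 290, 297 and 255 CPM in the controls and 151, 134 and 152 CPM at 100 µM. Among 28 genes of the ER chaperones and unfolded protein response 10 were higher and 3 lower, with 3 and 1 held. ATF6, a sensor of that response, had 17.2, 18.0 and 20.3 CPM against 53.7, 51.4 and 52.7 CPM. Of 30 ATF4 targets 7 were higher and 11 lower, with 4 and 6 held and a median of -0.07. Among 11 metallothionein and zinc genes 7 were higher and 2 lower, with 3 and 1 held. MT2A, a metal-binding protein, had 4.95, 6.46 and 4.95 CPM in the controls and 25.0, 8.74 and 22.1 CPM at 100 µM, with replicate 2 below replicates 1 and 3.

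Metabolic lists had members called in both directions, and 48.0% of glycolysis, 46.2% of cholesterol synthesis, 60.9% of fatty acid synthesis and 70.0% of amino acid members were called, beside 46.6% of all features. Of 25 glycolysis and glucose transport genes 9 were higher and 3 lower, with 3 and 1 held and a median of 0.07. SLC2A1, the glucose transporter GLUT1, had 225, 207 and 167 CPM in the controls and 576, 525 and 584 CPM at 100 µM, a log2 fold change of 1.49 ± 0.13. PKLR, the liver form of pyruvate kinase, had 60.6, 63.8 and 48.8 CPM against 29.4, 32.6 and 30.7 CPM. The treated libraries lay clear of the controls for both genes, in opposite directions. In fatty acid synthesis 9 of 23 were higher and 5 lower, with 4 and 2 held, and without 100 µM replicate 3 the lower count was 3. FADS2, a desaturase of polyunsaturated fatty acids, had 177, 191 and 139 CPM in the controls and 334, 321 and 333 CPM at 100 µM. Of 26 cholesterol synthesis genes 4 were higher and 8 lower, with 3 held as lower. FDPS, which makes the farnesyl precursor, had a log2 fold change of -0.61. Of 30 amino acid and urea cycle genes 8 were higher and 13 lower, with 5 and 7 held. CPS1, the entry enzyme of the urea cycle, had 14.5, 15.9 and 15.1 CPM against 39.8, 60.0 and 41.6 CPM. LIPC, the hepatic lipase, fell furthest among the lipoprotein genes, from 69.2, 70.5 and 64.8 CPM to 13.8, 13.3 and 14.5 CPM.

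The labelled cell type was checked against 12 hepatocyte markers, all of which were at 35.5 CPM or more in each of the 6 libraries. ALB, serum albumin, had 10448, 11618 and 15342 CPM in the controls and 8345, 8719 and 8612 CPM at 100 µM, a log2 fold change of -0.54. AFP, the fetal counterpart, had 4810, 4964 and 6320 CPM against 3765, 3437 and 3365 CPM. Both held, whereas the hepatocyte factor HNF4A, at 203 to 283 CPM in the controls and 263 to 281 CPM at 100 µM, was not called. Called shares were 46.2% for plasma carriers, 42.9% for coagulation and complement, 53.8% for hepatocyte transcription factors and 80.0% for apolipoproteins, beside 46.6% of all features. Of 26 plasma carriers 11 were lower and 1 higher, and 6 held as lower. HAMP, the iron hormone hepcidin, had 2.78, 2.91 and 1.73 CPM in the controls and 1.01, 0.533 and 0.485 CPM at 100 µM. Of 26 hepatocyte transcription factors 10 were higher and 4 lower, with 3 and 2 held. CEBPA and CEBPD moved apart with log2 fold changes of 1.12 and -1.41. In coagulation and complement 5 of 35 were higher and 10 lower, with 2 and 1 held. Apolipoproteins and their partners gave 12 higher and 8 lower of 25, with 2 and 3 held.

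Markers of other cell types were also summed. Of 12 leukocyte markers 4 passed the filter, and the sum of all 12 ran from 937 to 1062 CPM in the controls and from 1599 to 1702 CPM at 100 µM, with CD3E, MS4A1, MARCO and CD163 at 0. LYZ, lysozyme, made up most of it, with 889, 919 and 1021 CPM against 1623, 1551 and 1630 CPM. Fibroblast and stellate cell markers, of which 3 of 12 passed, summed to 39.2 to 43.4 CPM against 46.2 to 58.8 CPM, with LUM, FAP and DES at 0. Endothelial markers, 4 of 12, summed to 17.9 to 29.3 CPM against 8.74 to 10.2 CPM, with PECAM1, KDR, TEK and EMCN at 0. APOLD1 made up most of the control sums, with 11.6, 22.8 and 23.3 CPM against 1.12, 1.51 and 0.176 CPM. No endothelial marker held, and APOLD1 lost its call with the set term. Cholangiocyte and other epithelial markers, 4 of 12, summed to 1333 to 1441 CPM against 941 to 1006 CPM, with CFTR, KRT5 and KRT14 at 0. The part of these sums in the results above was not tested.

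Genes of caffeine's known targets and of its breakdown were examined list by list. Beside 46.6% of all features, 55.6% of the aryl hydrocarbon receptor list, 46.7% of the ER calcium list, 33.3% of the adenosine list and 30.8% of the phosphodiesterases were called. Of 9 tested targets of the aryl hydrocarbon receptor and caffeine-metabolising enzymes 2 were higher and 3 lower, and the 2 higher held. The lower ones were AHR, the receptor itself, at -0.42, its partner ARNT at -0.71 and ALDH3A1 at -0.89, of which AHR was named after its value was seen. CYP1A1, an enzyme of the aryl hydrocarbon receptor battery, had 2.57, 3.12 and 2.95 CPM in the controls and 5.73, 5.95 and 6.18 CPM at 100 µM, a 2.06-fold rise that held. CYP1A2, the main caffeine-metabolising enzyme of the liver, ADORA1, RYR1 and RYR2 did not pass the filter on low counts. The adenosine receptor gene ADORA2B had 30.1, 29.2 and 26.2 CPM against 27.5, 30.2 and 26.4 CPM and was not called, with a log2 fold change of -0.02. ADORA2A, the receptor that raises cAMP, had 1.07, 1.84 and 0.345 CPM against 0.15, 0.767 and 0.265 CPM and was not called. Of 13 phosphodiesterases 1 was higher and 3 lower, with 0 and 3 held. PDE4C, a cAMP-specific form, had 10.8, 9.48 and 7.63 CPM in the controls and 2.10, 3.11 and 2.07 CPM at 100 µM, and it held. PDE1A, a calmodulin-regulated form, had 0.733, 0.571 and 0.537 CPM in the controls and was at 0, 0 and 0.0441 CPM at 100 µM, where it is listed at 0 in 2 of 3 libraries, and it held as lower. PDE4A, at 4.41 to 7.70 CPM in the controls and 9.44 to 9.52 CPM at 100 µM, was higher but lost its call with the set term, and PDE4D was not called. Of 15 genes of ER calcium release and refill 6 were higher and 1 lower, with 2 held as higher. Of the receptors for inositol trisphosphate that release ER calcium, ITPR1 was higher with a log2 fold change of 0.58 (adjusted p = 0.0675 with the set term by edgeR), while ITPR2 and ITPR3 were not called. In the adenosine list 3 of 15 were higher and 2 lower, with 2 and 1 held. SLC29A1, a nucleoside transporter, had a log2 fold change of 0.76 and held.

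Lists of cAMP and insulin signalling were called at shares near or somewhat above the 46.6% of all features, 45.8% for protein kinase A and CREB factors and 57.1% for the gluconeogenesis and the insulin lists. Of 24 subunits of protein kinase A, CREB factors and salt-inducible kinases, 6 were higher and 5 lower, with 5 and 3 held. CRTC3, a co-activator of CREB, had 10.2, 10.0 and 10.8 CPM in the controls and 22.9, 22.2 and 24.6 CPM at 100 µM. CREB1 itself had 26.0, 26.5 and 31.2 CPM against 47.6, 52.3 and 49.0 CPM, and the CREB family member CREM had 36.0, 34.0 and 39.5 CPM against 23.4, 17.8 and 19.8 CPM. Thus members of the same family stood on opposite sides of control. Among 21 genes of gluconeogenesis and cAMP response 5 were higher and 7 lower, with 3 and 4 held, and TAT, a tyrosine-degrading enzyme, had a log2 fold change of -1.15. In the IGF and insulin list 9 of 21 were higher and 3 lower, with 2 held. GRB10, an adaptor that dampens insulin receptor signals, had 4.19, 4.78 and 4.26 CPM in the controls and 10.1, 9.96 and 10.9 CPM at 100 µM. IGFBP1, a liver-made IGF binding protein, had a log2 fold change of 1.08 but was not called with the set term.

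Other lists had called shares on either side of the 46.6% of all features, with 36.7% in drug metabolism, 42.9% in fatty acid oxidation, 43.9% in chromatin genes, 59.1% in the clock and 62.5% in bile acids. The values below are therefore of single genes. In fatty acid oxidation 9 of 28 were higher and 3 lower, with 2 and 3 held. ETFDH, which passes electrons from fatty acid oxidation to the respiratory chain, had 42.4, 43.6 and 49.4 CPM in the controls and 17.8, 18.1 and 19.7 CPM at 100 µM. Of 16 bile acid genes 6 were higher and 4 lower, with 3 and 2 held, and 3 were higher when control replicate 2 was left out. Both subunits of the basolateral bile acid exporter held as higher, SLC51A with a log2 fold change of 1.31 and SLC51B with 1.53. Of 30 other drug metabolism genes 5 were higher and 6 lower, with 3 and 2 held, among them the glucuronosyltransferase UGT2B7 at -0.51, which has close paralogues. In the circadian clock 5 of 22 were higher and 8 lower, with 3 and 2 held. CRY2, a clock repressor, had 27.6, 31.3 and 24.2 CPM in the controls against 13.8, 15.0 and 12.8 CPM. Of 41 chromatin genes 12 were higher and 6 lower, with 7 and 1 held. KMT2A, a histone H3 methyltransferase, had 34.6, 30.5 and 36.0 CPM in the controls and 71.7, 73.9 and 74.9 CPM at 100 µM, and TET1, which oxidises methylated cytosine, had a log2 fold change of 1.095.

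Over all features 2802 of 8358 calls kept their direction and call with the set term. In the nuclear lists of ribosomal and respiratory chain proteins many calls were also lost, at called shares of 48.1% to 58.4% beside 46.6% of all features. Of 79 cytosolic ribosomal protein genes 35 were higher and 3 lower, but 1 held, and the median of 0.36 went to 0.01 with the set term. RPL34, a protein of the large subunit, had 85.9, 92.1 and 117 CPM in the controls and 454, 180 and 435 CPM at 100 µM, so replicate 2, with the low mitochondrial share, lay between. Of 76 nuclear genes of the respiratory chain 39 were higher and 2 lower, 2 held, and the median of 0.33 also went to 0.01. The 77 mitochondrial ribosomal proteins gave 39 higher and 6 lower, with 13 held, among them MRPL54 at 2.22 and MRPL58 at 1.85. Of the 13 mitochondrial mRNAs 1 was higher and 2 lower, and none held, but these mRNAs defined the library sets, so losing their calls with the set term follows from how the sets were made. For the ribosomal and respiratory chain genes, the parts of the library set and of caffeine cannot be told apart. Called shares were 50% for splicing factors, 52.6% for decay factors, 41.2% for ribosome biogenesis, 38.5% for the proteasome and 73.9% for tRNA synthetases, beside the same 46.6%. Among 42 splicing factors 17 were higher and 4 lower, with 8 held as higher, such as SF3B3, a subunit of the spliceosome, at 0.71. Of 19 nonsense-mediated decay factors 4 were higher and 6 lower, with 2 and 2 held. UPF2, an adaptor of that pathway, fell from 143, 138 and 159 CPM to 71.4, 71.4 and 72.7 CPM. In ribosome biogenesis 10 of 34 were higher and 4 lower, with 4 held, but 6 were higher without control replicate 1 or without 100 µM replicate 1. Of 39 proteasome subunits 8 were higher and 7 lower, with 2 held, and the lower count was 4 without 100 µM replicate 3. PSMD3, a subunit of the regulatory cap, had 73.6, 74.5 and 67.9 CPM in the controls and 143, 157 and 129 CPM at 100 µM. Of 23 cytosolic aminoacyl-tRNA synthetases 9 were higher and 8 lower, with 4 held as higher, such as AARS1, which charges alanine, at 0.74.

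**Figure D4:**
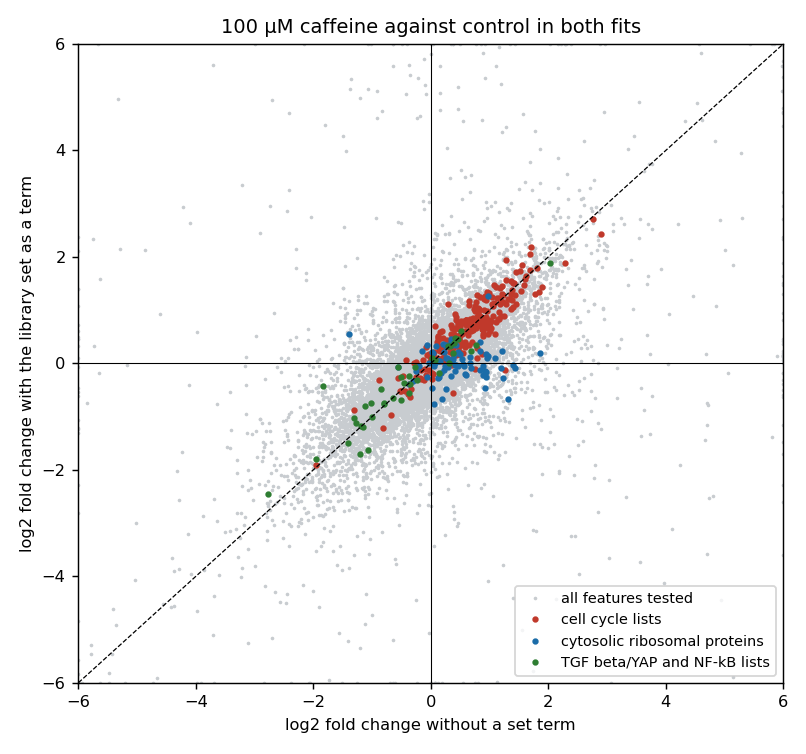
Log2 fold change at 100 µM against control without the set term (x axis) and with it (y axis) for all 17951 features (grey), cell cycle lists (red), cytosolic ribosomal proteins (blue) and the TGF beta, YAP and NF-kB lists (green). Values beyond 6 in size are drawn at 6 and the dashed line marks equal values. Red points follow the line, while blue points spread to the right along a y value near 0.

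The largest changes among protein-coding genes that held and had a mean of at least 5 CPM over the 6 libraries were taken by rule, 12 in each direction. In 19 of these 24 a group mean lay below 5 CPM, so they passed through the group where they were high. Besides CDKN2AIPNL, PBK and RBL1, the rises included CDCA7, a chromatin protein of S phase, with 5.59, 5.04 and 6.75 CPM in the controls and 41.5, 37.2 and 38.3 CPM at 100 µM. TUBGCP3, a component of the gamma-tubulin ring from which microtubules grow, had 4.68, 4.85 and 5.29 CPM against 27.7, 32.7 and 29.2 CPM. SLC35A1, which carries sialic acid into the Golgi, had a log2 fold change of 2.64 and the phosphatase gene DUSP12 had 2.73. SPOUT1, FSTL4 and UQCC3 had log2 fold changes of 2.61, 2.50 and 2.46, and of 1.78, 2.65 and 1.49 with the set term. CRCP, a subunit of RNA polymerase III, had 2.77, and 1.58 with the set term, and it too moved with the library set. At 1 µM it had 3.71 and 3.31 CPM in the set A libraries and 10.05 CPM in the set B library, and inside set B its rise from 10 to 100 µM was not called. The gene model ENSG00000259316.11 had the highest log2 fold change, 3.43, but it moved with the library set. It had 2.17, 2.28 and 2.80 CPM in the controls, 37.0, 10.96 and 30.6 CPM at 100 µM, and 6.29 to 7.19 CPM in the 10 µM libraries of set B, and its value was 1.02 with the set term. The deepest fall was KRTAP3-1, a hair keratin-associated protein, with 12.7, 15.2 and 9.16 CPM in the controls and 0.262, 0.213 and 0.397 CPM at 100 µM. SYP, the synaptic vesicle protein synaptophysin, had 10.1, 9.81 and 9.05 CPM against 1.27, 0.853 and 0.882 CPM. ACTA1, the actin of skeletal muscle, had a log2 fold change of -3.17 and IL18, a cytokine of the inflammasome, -2.45. ARRDC4, an arrestin-domain regulator of glucose uptake, was tight within groups, at 50.1, 52.2 and 59.4 CPM against 11.1, 11.4 and 11.4 CPM. The remaining falls besides CCN1 and LIPC were EIF2S3B, C11orf52, GPR75, MYOM1 and the gene model ENSG00000257390.5, at -3.30 to -2.26, and at -2.34 to -1.49 with the set term. EIF2S3B is a retrocopy of EIF2S3, so its counts are uncertain.

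Some genes passed without the set term by wide margins and not with it. Among called features 4884 were clear of the controls but not called with the set term. THSD8 had 0.183, 0.0519 and 0.0383 CPM in the controls and 18.5, 1.71 and 14.9 CPM at 100 µM, and its log2 fold change of 6.92 became 0.19. APOLD1 had 11.6, 22.8 and 23.3 CPM against 1.12, 1.51 and 0.176 CPM, and its -4.22 became 2.93, not called. HSPA1B, whose counts cannot be parted from those of its near-identical neighbour HSPA1A, went from -2.86 to -1.47. GCAT, an enzyme of threonine breakdown, had 110, 92.1 and 91.1 CPM against 18.7, 19.8 and 17.3 CPM, and its -2.39 became -0.51.

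The cell cycle rise was looked at over the whole dose series. The median log2 ratio of the 250 members to the control mean was 0.62, 0.66 and 0.63 in the 3 libraries at 100 µM. In the 12 libraries from 0.01 to 10 µM it ran from -0.08 to 0.07, and in the controls from -0.05 to 0.11. At 1000 µM it was -0.07, -0.06 and -0.01. By this median the 100 µM libraries stood above all others of the series. The single lists differed at 1000 µM, with medians against control of 0.19 for mitotic cyclins, 0.24 for spindle factors (14 of 31 higher and 5 lower) and 0.16 for mitotic kinases (5 of 20 higher and 7 lower). They were -0.39 for replication origin genes (4 of 30 higher and 18 lower) and -0.38 for DNA polymerases (5 of 33 higher and 19 lower). These values share the control libraries with those at 100 µM, and they were fitted without the set term. Between 1000 and 100 µM, where 3908 features (21.8%) were higher and 3998 (22.3%) lower at 1000 µM by edgeR's quasi-likelihood test, 186 of the 250 were lower and 12 higher. This contrast shares the 100 µM libraries with the one against control. Against control at 1000 µM, where 57.6% of features were called, 28.5% higher and 29.1% lower, 68 were higher and 87 lower.

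**Figure D5:**
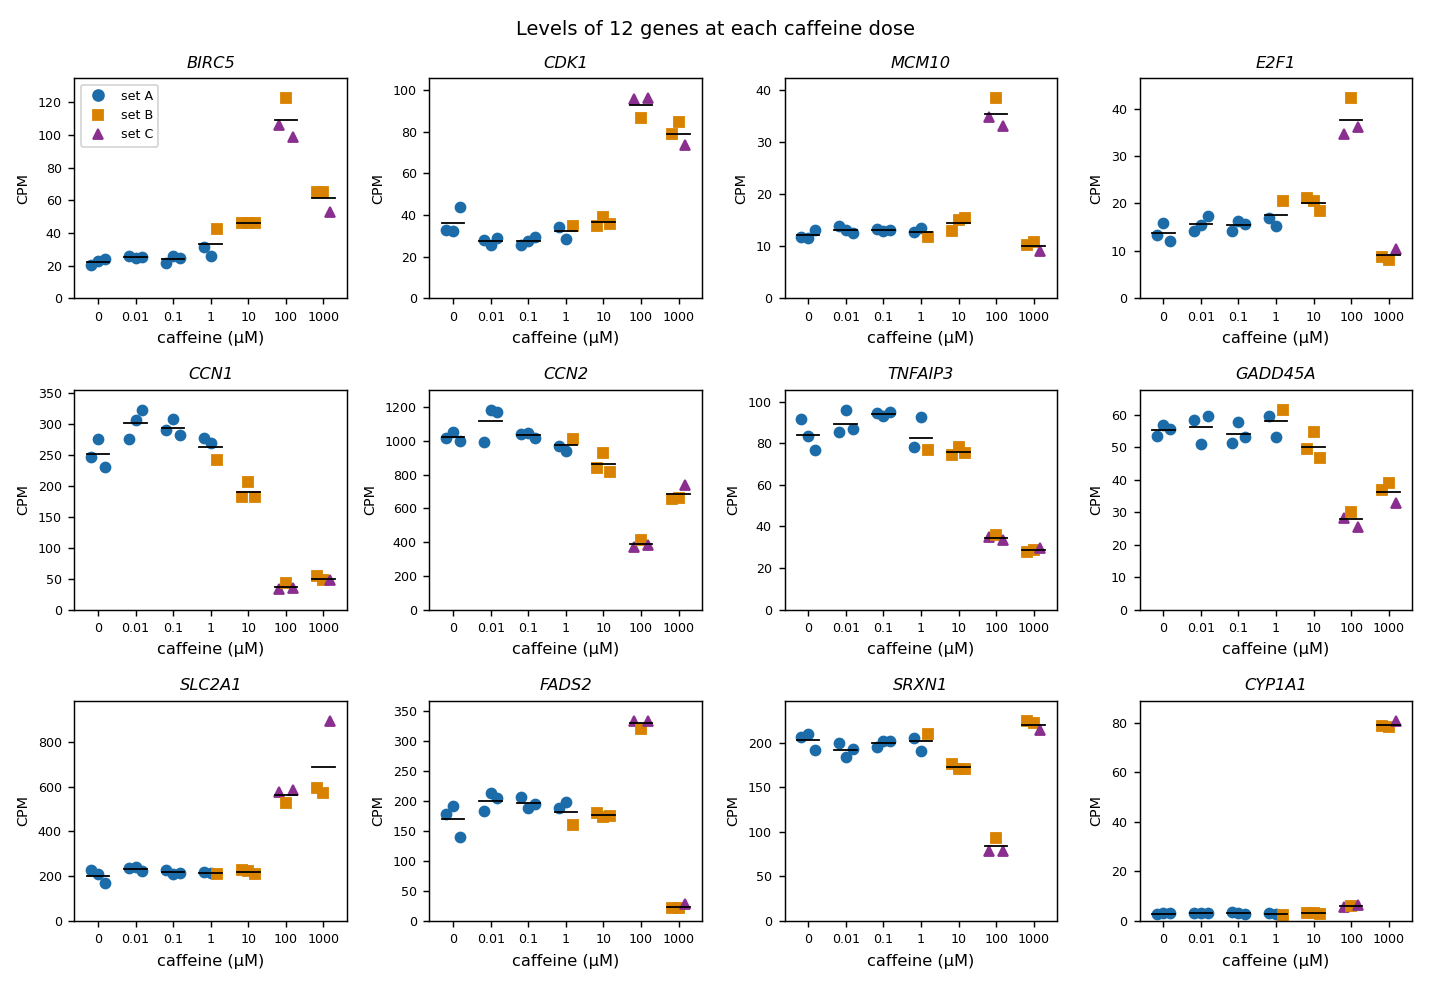
CPM (linear axis from 0) of 12 genes at each caffeine dose, with 1 point per library, bars for the group means and colours and symbols for the library sets. MCM10, E2F1 and FADS2 peak at 100 µM, SRXN1 is lowest there, and CYP1A1 stands far higher at 1000 µM than at 100 µM.

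BIRC5 had means of 22.5 ± 1.89 CPM without caffeine, 46.3 ± 0.16 CPM at 10 µM, 109 ± 11.96 CPM at 100 µM and 61.2 ± 7.07 CPM at 1000 µM (SD, n = 3 each). CDKN2AIPNL had 3.65 ± 0.44, 7.85 ± 0.15, 28.1 ± 0.48 and 17.1 ± 1.398 CPM at the same doses. RBL1 had 6.51 ± 0.54, 10.3 ± 1.19, 44.1 ± 1.49 and 24.5 ± 2.15 CPM. In all 3 genes the 100 µM group was the highest of these 4 groups. CCN1 went the other way, with 251 ± 23.1, 190 ± 14.6, 36.6 ± 5.18 and 50.01 ± 4.02 CPM. The largest rises did not all peak at 100 µM. PBK, CDCA7 and UQCC3 were lower at 1000 than at 100 µM, while DUSP12, SLC35A1 and CRCP were higher. DUSP12 had 16.3, 14.1 and 16.2 CPM at 100 µM and 28.1, 27.6 and 26.8 CPM at 1000 µM. All 10 µM libraries belong to set B, so the step from control to 10 µM mixes dose and set.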

How the data were processed

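Poly(dT)-captured RNA of HepG2 cells was sequenced from 21 libraries at 24 h, of which 3 control and 3 caffeine 100 µM libraries are described. The authors deposited raw read counts per feature. The submitters' processing notes name HISAT2, DESeq2 and GRCh38 with no versions; the counting tool, annotation and strand setting are not given in the sources used here. Of 37637 features, 24843 were matched by Ensembl ID to a gene symbol and 32329 to a GENCODE 29 gene model. A further 21 sample columns of the table were not used. Members and lists were chosen with earlier results of these data known.

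All 21 libraries were fitted together in edgeR 4.0.16 (R 4.3.3) with filterByExpr by group, TMM scaling and the robust quasi-likelihood F-test. Benjamini-Hochberg adjustment over 17951 features was used with a threshold of 0.05. A second fit added the library set, found by average-linkage clustering of the 13 mitochondrial mRNAs. Named genes were the 12 rises and 12 falls with the largest changes among held protein-coding genes with a mean of at least 5 CPM over the 6 libraries, the given markers, genes tied to caffeine, and up to 4 called members of each list by smallest p, taking first those called with the set term. Alternatives were DESeq2 1.42.0, limma-voom (limma 3.58.1), other scalings, other filters, a replicate block, single treated libraries and leaving out each replicate. Whether the replicate numbers pair libraries could not be told. Same-numbered control and treated libraries had deviation correlations of -0.15, -0.004 and 0.11, and differently numbered ones ran from -0.18 to 0.20. The treated replicates also differ in library set, with replicate 2 in set B and replicates 1 and 3 in set C. Total counts were 23502519 to 44815552 in the 6 libraries. Promoters came from RefSeq on GRCh38.p14. Values of a few list members are not reported here, although they are included in the counts.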

Additional observations from a re-analysis of the deposited data

Results flagged for a closer look

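A set of 32 named genes moved 1 way at 100 µM and the opposite way at 1000 µM, each called against control by edgeR's quasi-likelihood test, and the direct test of 1000 against 100 µM was called too. Both contrasts with control use the same control libraries, and the direct test uses the same 100 µM libraries. Over all features, 539 of the 8358 called at 100 µM were called the opposite way at 1000 µM, and 5556 the same way. Those counts do not require the direct test.

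Among these, 7 cell cycle genes were higher at 100 µM and lower at 1000 µM. The log2 differences of 1000 minus 100 µM were GINS2 -2.97, E2F2 -2.40, E2F8 -2.22, E2F1 -2.05, MCM10 -1.82, MCM6 -1.69 and ZWINT -1.45. GINS2, a helicase subunit, had means of 8.90, 28.8 and 3.69 CPM without caffeine, at 100 and at 1000 µM, and E2F2 had 9.34, 24.0 and 4.54 CPM. The kinetochore gene ZWINT had 42.0, 91.0 and 33.4 CPM.

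Other genes with the same pattern had differences of FADS2 -3.80, FADS1 -1.68, PFKFB3 -1.59, DNMT3B -1.38, ACTA2 -1.36, CALM3 -1.24, HADH -1.10, LDHA -0.95, APOL1 -0.95, BHLHE40 -0.93, PRPS2 -0.92 and PSMD1 -0.45. The desaturase gene FADS2 stood at 169, 329 and 23.7 CPM in the same order of doses.

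The opposite pattern, lower at 100 µM and higher at 1000 µM, gave differences of PPP1R15A 1.73, CTH 1.72, AKR1C1 1.71, H2AC6 1.51, ALDH3A1 1.44, SPP1 1.39, TAT 1.36, EPB41L4A-AS1 1.29, WIPI1 1.21, NBR1 1.12, SLC30A1 1.04, VLDLR 0.99 and ZNF655 0.75. PPP1R15A, which reverses the stress block on translation, had 63.8, 32.6 and 108 CPM, and AKR1C1 had 1481, 709 and 2315 CPM.

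Of the 32 genes, 26 held at 100 µM once library set was fitted. The other 6 lost their call at 100 µM with that term, where their log2 fold changes were -0.46 for H2AC6, -0.50 for ALDH3A1, 0.36 for PRPS2, -0.29 for ZNF655, 0.20 for ACTA2 and -0.18 for SPP1.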

How the results depend on the processing

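The number of features called at 100 µM against control, 8358, was 3114 with the library set as a term and 5571 with 100 µM replicate 2 alone, where features were filtered again for the smaller fit. Called list members went from 854 to 398 with the set term. Replicates 1 and 3 alone gave counts close to that of replicate 2 alone, and the control and 100 µM libraries fitted without the others gave 6674. Other scalings, tests and filters gave 6166 to 8384 features, and leaving out each replicate gave 7104 to 8149. The replicate block gave 8099, and since no pairing by number could be shown it was not used further. It ended the call of 2 of the 258 named genes that were called. Inside set B the count of 2791 ran from 2141 to 2220 when a 10 µM library was left out, and between 1000 and 100 µM the count of 7906 ran from 6274 to 9324. Of the 258 named genes, 207 kept their call and direction with the set term, which their choice largely fixed, since genes called with that term were taken first. Over all features 2802 of 8358 did. Reversed there, with the cause not tested, were ENSG00000273590.4 at -1.44, ENSG00000284952.1 at -2.50, APOLD1 at 2.93, H2BC4 at 0.038, MT-ND6 at -0.0623, SNHG8 at -0.40 and EGFL7 at -0.10. MT-ND6 was also reversed, at -0.27, with 100 µM replicate 2 alone. The mitochondrial share at 100 µM minus control was -2.34 percentage points and ran from -3.70 to 0.35 when each library was left out, with the sign turned without 100 µM replicate 2. Single treated libraries have no spread of their own and are assumed to vary like the other groups. Genes at a few counts, such as PDE1A, are limited by depth.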
